A study of Mus musculus with 24 samples.

Results

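*Htr1b*, *Nrn1*, *Cadps*, *Slc38a4* and *C1qtnf1* are 5 protein-coding genes whose mRNA was close to absent when neural stem and progenitor cells (NSPCs) without the histone acetyltransferase gene *Kat6a* proliferated. They were chosen by their large falls in proliferating homozygous mutant NSPCs against wildtype NSPCs in these same libraries, so that fall is given here as a description and carries no test. The 5 genes are 5 of the 26411 genes in the count tables and 5 of the 12276 protein-coding genes tested in proliferating cells. The account follows them through the 3 genotypes and both culture conditions, in all 24 libraries.

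KAT6A (MOZ) acetylates lysines of histone H3 as the catalytic subunit of a complex with BRPF scaffold proteins, and acetylated H3 is found at active promoters. *Htr1b* encodes a serotonin receptor that couples to the inhibitory G protein and sits on axon terminals. *Nrn1* encodes neuritin, a small glycosylphosphatidylinositol-anchored surface protein that is induced by neuronal activity and promotes neurite growth. *Cadps* encodes CAPS1, a calcium-dependent protein that primes dense-core vesicles for release. *Slc38a4* encodes the sodium-coupled neutral amino acid transporter SNAT4 and is imprinted, with expression from the paternal allele. *C1qtnf1* encodes CTRP1, a secreted protein with a C1q-like globular domain.

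RNA was sequenced from NSPCs of the dorsal telencephalon of embryos at E12.5 on a C57BL/6 background, from crosses of *Kat6a* heterozygotes. There were 4 libraries in each of 6 groups, namely WT (*Kat6a*+/+), HET KO (*Kat6a*+/–) and HOM KO (*Kat6a*–/–) cells, each in proliferation and in differentiation. Cells were kept for 3 days either in proliferation medium or in medium without growth factors and with serum on a laminin coat (differentiation). According to the study's methods NSPCs were passaged and frozen, and whether each library came from thawed cells was not stated. The mutant allele is a germline deletion of exons, present in all cells of the embryo. The RNA kit differed with the condition, so kit and condition cannot be told apart. The libraries came from 8 litters, and 6 embryo labels recur in both conditions. A WT embryo 7 is labelled with litter 4346 in proliferation and with litter 4364 in differentiation; if these were the same litter, there would be 7 litters and 7 recurring labels. Nothing else in the labels describes how the replicates relate, and p-values measure the spread between these libraries.

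Total counts per library ran from 7826660 to 40838203, and 3 counts, the floor of detection used here, corresponded to between 0.0758 and 0.387 CPM (counts scaled to 1000000 reads in protein-coding genes). *Kat6a* itself was counted over the whole gene, at 333.7 to 389.3 CPM in proliferating HOM KO and 373.0 to 408.6 CPM in proliferating WT libraries, so these counts did not check the deleted exons. Summed NSPC markers were between 7068 and 14200 CPM in HOM KO libraries and between 7869 and 9853 CPM in WT libraries. Differentiating HOM KO replicate 2 stood apart from its group, with summed astrocyte markers at 6404 CPM, and it received 4.22% of that group's weight in the fit against 69.0% for replicate 3.

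In the GENCODE annotation of mm39, the build to which the reads were aligned, the 5 genes lie on 5 chromosomes. *Htr1b* is on the minus strand at chr9:81510344-81515902, *Nrn1* on the minus strand at chr13:36909335-36919156 and *Cadps* on the plus strand at chr14:9646283-10097665. *Slc38a4* is on the minus strand at chr15:96892693-96958593 and *C1qtnf1* on the plus strand at chr11:118318941-118342605. The counts cover all exons, with exon lengths in the count tables of 4753 bases for *Htr1b*, 1769 for *Nrn1*, 5541 for *Cadps*, 4162 for *Slc38a4* and 4519 for *C1qtnf1*.

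The RefSeq promoter table of the earlier build GRCm38.p6 held 3 of the 5 genes, with 5 start sites in all; *Nrn1* and *C1qtnf1* were not matched. The 250 bases before the start site are shown for *Htr1b* (chr9:81633833-81634082, minus strand), *Cadps* (chr14:12823080-12823329, minus strand) and the most upstream of 3 *Slc38a4* starts (chr15:97055957-97056206, minus strand), because these genes fell together in the same cells. Sequences run 5′ to 3′, and capitals mark CpG dinucleotides.
*Htr1b*: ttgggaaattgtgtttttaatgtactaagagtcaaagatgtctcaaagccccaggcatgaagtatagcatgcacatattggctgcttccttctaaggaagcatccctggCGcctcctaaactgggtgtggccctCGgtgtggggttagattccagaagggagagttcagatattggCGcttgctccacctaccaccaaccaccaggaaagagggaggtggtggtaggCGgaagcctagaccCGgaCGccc
*Cadps*: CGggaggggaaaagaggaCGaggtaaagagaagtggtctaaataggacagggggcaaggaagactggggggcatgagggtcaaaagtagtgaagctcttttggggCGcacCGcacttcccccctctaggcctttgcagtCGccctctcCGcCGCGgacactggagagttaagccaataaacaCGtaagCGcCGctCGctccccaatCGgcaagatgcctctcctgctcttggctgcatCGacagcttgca
*Slc38a4*: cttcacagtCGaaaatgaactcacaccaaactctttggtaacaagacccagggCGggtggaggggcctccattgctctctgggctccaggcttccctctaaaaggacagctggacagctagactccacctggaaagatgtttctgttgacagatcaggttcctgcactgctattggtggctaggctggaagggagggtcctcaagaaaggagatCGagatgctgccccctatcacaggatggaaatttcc

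The 3 windows did not share a CpG content. *Cadps* held 14 CpG dinucleotides and 58.0% G and C, *Htr1b* held 6 and 52.4%, and this *Slc38a4* window held 3 and 52.8%, beside a median of 6 and 52.4% over 32851 promoter windows of the same length. The motif CCAAT, searched on both strands, occurred in the *Htr1b*, *Cadps* and *Slc38a4* windows shown, and in 33.8% of all windows. CANNTG and GGGCGG occurred in the *Slc38a4* window only, against 66.2% and 32.7% of all windows. These 3 stretches held neither TATAAA (found in 12.4% of all windows) nor the letters TGACG (in 17.8%) nor the letters AACAAT (in 9.42%). Of the *Slc38a4* starts not shown, the window at chr15:97031214-97031463 held both TATAAA and TGACG, and that at chr15:97020360-97020609 held neither. The letters describe the windows and say nothing of which factors bind there.

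*Htr1b*, the serotonin receptor gene, was at 10.1, 11.9, 15.4 and 12.8 CPM in the 4 proliferating WT libraries and at 0.906, 0.902, 0.548 and 0.0997 CPM in the 4 HOM KO libraries. The raw counts behind the HOM KO values were 8, 7, 5 and 1, so the groups lay far apart and the HOM KO level was near the floor. The mean was 12.6 ± 2.19 CPM in WT and 0.614 ± 0.382 CPM in HOM KO cells (SD, n = 4 each), or 4.89% of WT, with a fitted log2 fold change of −4.61 (SE 0.47). In bulk RNA, fewer expressing cells and less mRNA per cell cannot be told apart. HET KO libraries had 7.40, 7.72, 6.69 and 4.98 CPM, and all 4 lay below every WT and above every HOM KO library.

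*Htr1b* was a lowly expressed gene in differentiating cells. WT libraries had 1.21, 2.46, 2.94 and 1.17 CPM, HET KO libraries 1.63, 0.602, 0.834 and 3.63 CPM, and HOM KO libraries 0.275, 0, 0.362 and 0.517 CPM. The HOM KO libraries again lay below every WT library, and the HET KO libraries spread across the WT range. In limma across all genes, *Htr1b* fell by 2.08 on the log2 scale in HOM KO against WT differentiating cells (SE 0.44, FDR 0.00163). The call was lost with litter as a fixed term (log2 fold change −2.37, FDR 0.082), without HOM KO replicate 1 (−3.01, FDR 0.0565) and without HOM KO replicate 3 (−3.22, FDR 0.0614), although the estimate stayed negative.

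*Nrn1*, the neuritin gene, was the most abundant of the 5. Proliferating WT libraries had 49.8, 58.1, 32.0 and 68.9 CPM, and HOM KO libraries had 1.13, 2.45, 1.42 and 1.99 CPM, from 10, 19, 13 and 20 reads. The means were 52.2 ± 15.6 and 1.75 ± 0.588 CPM (SD, n = 4 each), which put HOM KO cells at 3.35% of WT, the lowest share among the 5 genes, with a fitted log2 fold change of −4.55 (SE 1.01). HET KO libraries were uneven, at 40.7, 19.2, 60.5 and 18.6 CPM. Of these, 2 lay within the WT range and 2 below it, and all 4 lay above HOM KO.

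*Nrn1* was still abundant in differentiating WT cells. WT libraries had 31.4, 55.2, 41.9 and 46.6 CPM, HET KO libraries 36.6, 33.4, 14.7 and 32.3 CPM, and HOM KO libraries 3.92, 10.5, 7.11 and 2.97 CPM. No HOM KO library reached the lowest WT or HET KO library. The HOM KO mean was 14.0% of WT, and *Nrn1* fell by 2.66 on the log2 scale (SE 0.28, FDR 1.4e-05).

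*Cadps*, the dense-core vesicle priming gene, had 6.42, 5.77, 5.83 and 7.36 CPM in proliferating WT libraries, the tightest WT group of the 5 genes. HOM KO libraries had 0.340, 0, 0.876 and 0.399 CPM, from 3, 0, 8 and 4 reads. The means were 6.35 ± 0.735 and 0.404 ± 0.361 CPM (SD, n = 4 each), or 6.36% of WT, with a fitted log2 fold change of −4.25 (SE 0.55). HET KO libraries had 3.94, 4.71, 3.43 and 6.83 CPM, 3 of them below every WT library.

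Mean *Cadps* was higher in differentiation in WT cells (30.9 CPM) and in HOM KO cells (2.20 CPM), and the groups stayed apart. WT libraries had 31.2, 23.2, 27.6 and 41.6 CPM, whereas HOM KO libraries had 0.550, 4.51, 0.964 and 2.78 CPM, so the highest HOM KO library was below the lowest WT library. HET KO libraries ranged most widely, with 27.1, 6.22, 26.1 and 63.7 CPM, on both sides of the WT range. The fitted log2 fold change of HOM KO against WT was −4.70 (SE 0.41, FDR 4.94e-06), and the HOM KO mean was 7.12% of WT.

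*Slc38a4*, the imprinted amino acid transporter gene, had 14.0, 7.58, 10.8 and 12.2 CPM in proliferating WT libraries and 0.227, 0.516, 1.31 and 0.598 CPM in HOM KO libraries, from 2, 4, 12 and 6 reads. The means were 11.1 ± 2.73 and 0.664 ± 0.462 CPM (SD, n = 4 each), or 5.96% of WT, with a fitted log2 fold change of −4.07 (SE 0.83). HET KO libraries had 7.24, 6.52, 10.3 and 1.76 CPM. All but the third lay below every WT library, and the last came closest to the HOM KO libraries.

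*Slc38a4* was almost undetected in differentiating cells of any genotype. WT libraries had 0.606, 0.601, 2.61 and 0.0419 CPM, HET KO libraries 0.121, 1.07, 0.501 and 0.269 CPM, and HOM KO libraries 0.688, 0.0531, 0.301 and 0 CPM, from between 0 and 54 reads per library. The groups overlapped, and the fitted log2 fold change of HOM KO against WT was −1.24 (SE 0.78, FDR 0.195). Pooled counts put HOM KO at 25.7% of WT with an exact 95% interval of 14.0% to 44.5%, which covers counting error only. A difference passed the threshold only without WT replicate 4, the library with 1 read (log2 fold change −1.94, FDR 0.0263), or with the replicate number as a block (−1.78, FDR 0.0297).

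*C1qtnf1*, the secreted C1q-related gene, was the least abundant member in proliferating cells. WT libraries had 4.78, 2.35, 1.31 and 3.05 CPM and HOM KO libraries 0.113, 0.129, 0.110 and 0.199 CPM, which were 1, 1, 1 and 2 reads. The means were 2.87 ± 1.46 and 0.138 ± 0.0420 CPM (SD, n = 4 each), or 4.80% of WT, with a fitted log2 fold change of −3.58 (SE 0.76), and the average log2 CPM of the gene over the 12 libraries was −0.15. HET KO libraries had 3.54, 2.11, 1.47 and 0.293 CPM, of which 1 lay below every WT library and all lay above HOM KO.

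In differentiating cells *C1qtnf1* took the opposite direction. WT libraries had 13.9, 36.9, 18.6 and 11.7 CPM and HET KO libraries 19.6, 30.8, 17.7 and 29.3 CPM, while HOM KO libraries had 68.5, 5.10, 70.5 and 49.9 CPM. Thus 3 HOM KO libraries were above every WT library and replicate 2 was below every WT library. The weighted fit gave a log2 fold change of 1.87 (SE 0.36, FDR 0.000984). The call depended on the replicates and the test: the fold change was 0.86 (FDR 0.411) without quality weights, 1.26 (FDR 0.153) in edgeR, 0.19 (FDR 0.914) without HOM KO replicate 1 and −0.14 (FDR 0.943) without HOM KO replicate 3.

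The markers of meningeal and mesenchymal cells were likewise lowest in HOM KO replicate 2. Their summed level was 358.7, 136.3, 349.8 and 304.7 CPM in HOM KO replicates 1 to 4 and between 151.9 and 198.1 CPM in WT libraries; 4 of the 7 tested of 12 listed markers were called higher and 1 lower, with *Col1a1*, a fibrillar collagen gene, at a mean of 107 CPM in HOM KO and 6.2 CPM in WT libraries. Other listed markers were near the floor in differentiating HOM KO libraries, with means of 0 CPM for *Lum*, 0.35 CPM for *Col3a1* and 0.54 CPM for *Dcn*. *Zic1* was at a mean of 89.2 CPM there and 112.4 CPM in WT. Whether such cells were present, and their part in the *C1qtnf1* values, was not tested.

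**Figure D1:**
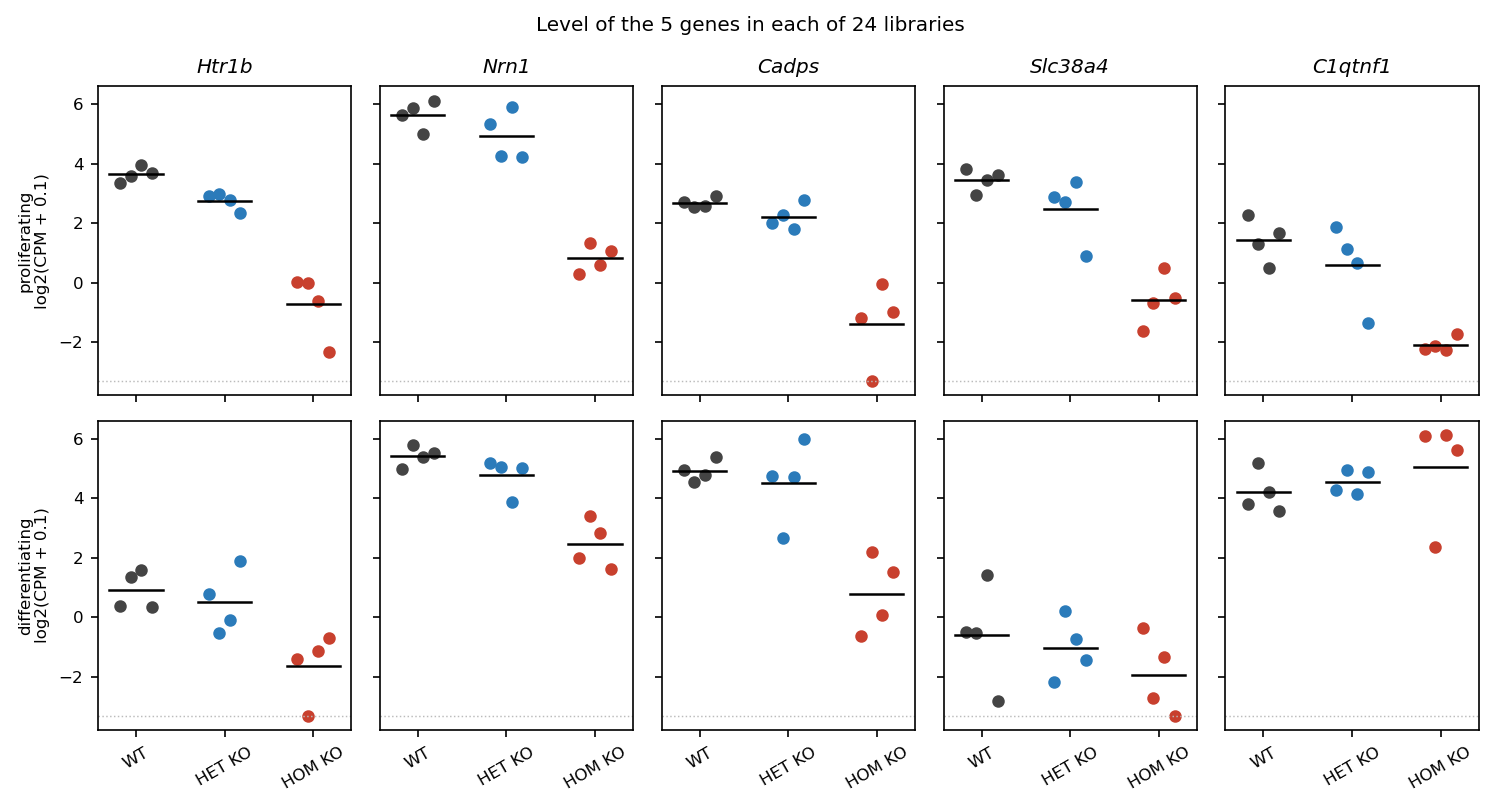
Level of each of the 5 genes in the 24 libraries, as log2 of CPM plus 0.1, for WT, HET KO and HOM KO cells in proliferation and differentiation. Each point is 1 library, bars are group means of the log2 values and the dotted line marks 0 CPM. All proliferating HOM KO points lie below the WT points, by the choice of the genes; in differentiation this holds for *Htr1b*, *Nrn1* and *Cadps*.

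The 5 genes were among the 1693 called lower in proliferating HOM KO against WT cells (limma, FDR below 0.05), 13.8% of the genes tested, and each had all 4 HOM KO libraries below all 4 WT libraries, as did 17.6% of genes; their selection fixed both. Pooled over the 4 libraries, the HOM KO counts left 5.10% of WT for *Htr1b* (exact 95% interval 3.14% to 7.84%), 3.38% for *Nrn1* (2.59% to 4.34%), 6.66% for *Cadps* (3.70% to 11.1%), 5.62% for *Slc38a4* (3.58% to 8.42%) and 3.91% for *C1qtnf1* (1.26% to 9.23%). These intervals cover counting error only, and all 5 overlap one another. Residual reads were thus found for every member, in 19 of 20 combinations of gene and HOM KO library.

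The differentiating libraries were not used in the choice, although 3 HOM KO and 2 WT embryo labels occur in both conditions. Of the 5 genes, *Htr1b*, *Nrn1* and *Cadps* fell in HOM KO against WT, where 27.7% of 13339 genes were called lower, and *C1qtnf1* was higher, where 26.7% were called higher. *Htr1b*, *Nrn1* and *Cadps* also had all 4 HOM KO below all 4 WT libraries, against 14.7% of genes tested. *Nrn1* and *Cadps* were called in every alternative fit, and they were the 2 genes called without HOM KO replicate 1 or 3. A call alone therefore sets the 5 little apart from other genes, and their sizes are given against a median of −0.02 on the log2 scale over all genes.

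The genes just outside the choice were read in the same way. Among genes called lower with an average log2 CPM above 0 and no overlap of HOM KO and WT libraries, the falls after *Htr1b*, *Nrn1*, *Cadps* and *Slc38a4* were those of *Sfrp1*, a secreted WNT inhibitor (log2 fold change −3.36), *Elfn2* (−2.99) and *Serpina3n*, a secreted protease inhibitor (−2.97). Their proliferating HET KO means also lay between HOM KO and WT. Means in WT, HET KO and HOM KO cells were 9.02, 3.31 and 0.640 CPM for *Sfrp1* and 29.3, 13.0 and 3.76 CPM for *Elfn2*. Those of *Serpina3n* were 5.34, 2.30 and 0.561 CPM. In differentiation *Sfrp1* had 31.5 CPM in HOM KO and 59.8 CPM in WT cells, *Elfn2* 0.173 and 0.481 CPM, and *Serpina3n* 13.7 and 13.3 CPM. The HOM KO and WT ranges of each gene overlapped there. *Adamts19* (−4.48) and *Golga7b* (−3.59), named after their values were seen, fell further than *C1qtnf1* at lower average levels than it.

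The question of dose was whether loss of 1 *Kat6a* allele lowered these genes. In proliferating cells the HET KO mean was 53.3% of WT for *Htr1b*, 57.9% for *Slc38a4*, 64.6% for *C1qtnf1*, 66.5% for *Nrn1* and 74.5% for *Cadps*. All 5 HET KO means lay between HOM KO and WT, as did those of 36.2% of the genes tested with WT highest. On the log2 scale, the HET KO change was 17.2% of the HOM KO change for *Htr1b*, 12% for *Nrn1*, 9.66% for *Cadps*, 23.4% for *Slc38a4* and 27.0% for *C1qtnf1*; over the 260 called genes that fell by more than 1 on this scale the median was 23.8%, and the HET KO estimate was below 0 in 95.0% of them. The comparison shares its WT libraries with the one that chose the genes.

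None of the 5 passed the test in proliferating HET KO against WT cells in limma, where 0.0% of all genes did. An unadjusted p under 0.05 in limma was found for 2 of the 5 and for 912 of all 12276 genes. edgeR called 0 of the 5 and 0 of all genes, and DESeq2 called 1 of the 5. *Htr1b* came closest, with a log2 fold change of −0.79 (SE 0.19, FDR 0.338) in limma and −0.88 (FDR 0.0366) in DESeq2, which called 28 genes. All 4 of its HET KO libraries lay below all 4 WT libraries. The share of all genes with such a separation was not counted, so it is a description only. The other estimates were −0.54 (SE 0.34) for *Nrn1*, −0.41 (SE 0.23) for *Cadps*, −0.95 (SE 0.37) for *Slc38a4* and −0.97 (SE 0.51) for *C1qtnf1*. Leaving out single libraries moved them from −0.87 to −0.33 for *Nrn1*, −0.57 to −0.31 for *Cadps*, −1.27 to −0.49 for *Slc38a4* and −1.39 to −0.38 for *C1qtnf1*. A log2 fold change of −1 lies within 2 standard errors of the estimates for *Htr1b*, *Nrn1*, *Slc38a4* and *C1qtnf1*.

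No change of the members was detected in differentiating HET KO cells. None of the 5 was called in limma, in edgeR or in DESeq2, and 0.0% of all genes were called in limma. None of the 5 had an unadjusted p under 0.05, against 1926 of all 13339 genes in limma. The estimates were −0.27 (SE 0.46) for *Htr1b*, −0.38 (SE 0.29) for *Nrn1*, −0.25 (SE 0.44) for *Cadps*, −1.28 (SE 0.83) for *Slc38a4* and 0.40 (SE 0.39) for *C1qtnf1*. HET KO means lay between HOM KO and WT, with WT highest, for *Htr1b*, *Nrn1*, *Cadps* and *Slc38a4*, as for 27.3% of genes, and with WT lowest for *C1qtnf1*, but the HET KO ranges of all 5 overlapped the WT ranges.

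HOM KO cells were then set against HET KO cells, which keep 1 *Kat6a* allele. All 5 genes were lower in proliferating HOM KO cells, where 6.3% of genes were called lower, with log2 fold changes of −3.82 for *Htr1b* (SE 0.46, FDR 0.000358), −4.005 for *Nrn1* (SE 0.99, FDR 0.0214), −3.84 for *Cadps* (SE 0.54, FDR 0.00087), −3.12 for *Slc38a4* (SE 0.82, FDR 0.0249) and −2.62 for *C1qtnf1* (SE 0.77, FDR 0.0384). The HOM KO libraries are those that chose the genes, so these calls are a description and no support. Without HOM KO replicate 1 or 4, 2 of the 5 were called, and 3 without HET KO replicate 1 or HOM KO replicate 2 or 3. The *C1qtnf1* call was lost in 10 of 22 alternatives, with FDR up to 0.142. Those of *Nrn1* and *Slc38a4* were lost in 4 each, while *Htr1b* and *Cadps* were called in every alternative.

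In differentiation the same contrast gave −1.81 for *Htr1b* (SE 0.51, FDR 0.0164), −2.28 for *Nrn1* (SE 0.32, FDR 0.000439) and −4.45 for *Cadps* (SE 0.49, FDR 7.93e-05), with 18.5% of genes called lower. *C1qtnf1* was higher by 1.47 (SE 0.43, FDR 0.0187), with 19.1% of genes called higher, and *Slc38a4* differed by 0.04 (SE 0.91, FDR 0.974). None of the 5 was called without HOM KO replicate 3, 1 without HOM KO replicate 1 and 2 without HET KO replicate 1. The *C1qtnf1* call was lost in edgeR (1.001, FDR 0.3), in DESeq2 (1.005, FDR 0.221) and without quality weights (0.50, FDR 0.688). Its estimate turned to −0.22 without HOM KO replicate 1 and to −0.55 without replicate 3. The *Htr1b* call was lost in edgeR (−2.53, FDR 0.0537) and with litter fixed (−1.535, FDR 0.233), among others.

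**Figure D2:**
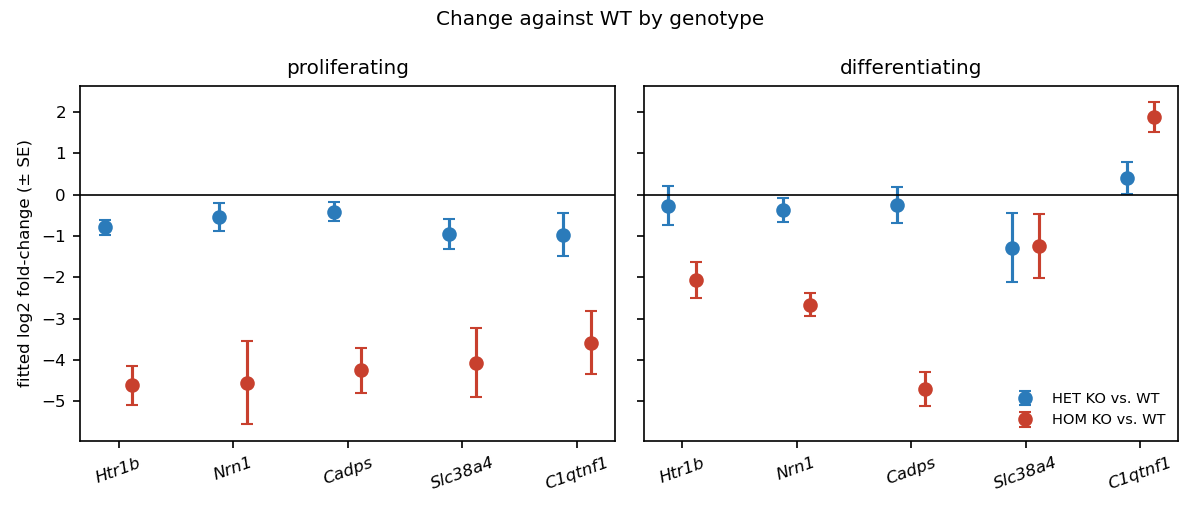
Fitted log2 fold changes of the 5 genes against WT in proliferating and in differentiating cells, for HET KO and HOM KO, with 1 standard error on each side. The HOM KO estimates in proliferation lie between −4.61 and −3.58 and the HET KO estimates between −0.97 and −0.41; in differentiation *C1qtnf1* is above 0.

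Culture condition moved the WT levels of the 5 genes in different directions. In differentiating against proliferating WT cells, *Htr1b* fell by 2.69 (SE 0.38, FDR 1.97e-06) and *Slc38a4* fell by 4.58 (SE 0.77, FDR 1.95e-05) on the log2 scale, where 36.2% of genes were called lower. *Cadps* rose by 2.27 (SE 0.53, FDR 0.000698) and *C1qtnf1* by 2.51 (SE 1.12, FDR 0.0494), where 36.7% were called higher, and *Nrn1* changed by −0.22 (SE 0.30, FDR 0.505). The *C1qtnf1* call was lost in 17 of 34 alternatives.

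Per kilobase of exon, the order of the genes therefore differed between conditions. In proliferating WT cells *Nrn1* led with 29.5 ± 8.81 CPM per kilobase, *Slc38a4* (2.68 ± 0.655) and *Htr1b* (2.64 ± 0.460) did not differ beyond their spread, and *Cadps* (1.15 ± 0.133) and *C1qtnf1* (0.635 ± 0.323) were lowest (SD, n = 4). In differentiating WT cells *Nrn1* led again with 24.7 ± 5.59, followed by *Cadps* (5.58 ± 1.41) and *C1qtnf1* (4.49 ± 2.53), which overlapped, and then *Htr1b* (0.410 ± 0.188) and *Slc38a4* (0.231 ± 0.271), which also overlapped.

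Whether the HOM KO effect differed between conditions was tested as an interaction, which uses the contrast that chose the genes. This fit, like that of the WT conditions, blocked on litter and not on embryo, although 6 embryo labels recur in both conditions. None of the 5 was called in limma, and none had an unadjusted p under 0.05, while 13.9% of all genes were called. The estimates, differentiation minus proliferation, were 1.28 for *Htr1b* (SE 1.04, FDR 0.44), 1.94 for *Nrn1* (SE 1.05, FDR 0.223), 0.09 for *Cadps* (SE 1.94, FDR 0.981), 2.56 for *Slc38a4* (SE 1.58, FDR 0.291) and 4.85 for *C1qtnf1* (SE 3.06, FDR 0.304). edgeR and DESeq2 each called 2 of them, *C1qtnf1* (5.62, FDR 0.00393 in edgeR and 4.14e-06 in DESeq2) and *Nrn1* (2.08, FDR 0.03 in edgeR). Of all 13590 genes, edgeR called 2233 and DESeq2 called 2768. Without differentiating HOM KO replicate 2, *C1qtnf1* (5.66, FDR 0.00623) and *Htr1b* (2.33, FDR 0.0494) were called in limma, among 3520 genes called.

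Cells with the same embryo label in both conditions were compared as pairs. In the 2 WT embryos *Htr1b* went from 10.1 and 15.4 CPM in proliferation to 1.21 and 2.94 CPM in differentiation, and *Cadps* from 6.42 and 5.83 to 31.2 and 27.6 CPM. In the 3 HOM KO embryos *Cadps* went from 0, 0.876 and 0.399 to 4.51, 0.964 and 2.78 CPM, and never reached the proliferating WT level. *C1qtnf1* in these 3 went from 0.129, 0.110 and 0.199 to 5.10, 70.5 and 49.9 CPM, above the WT embryos in 2 of the 3.

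**Figure D3:**
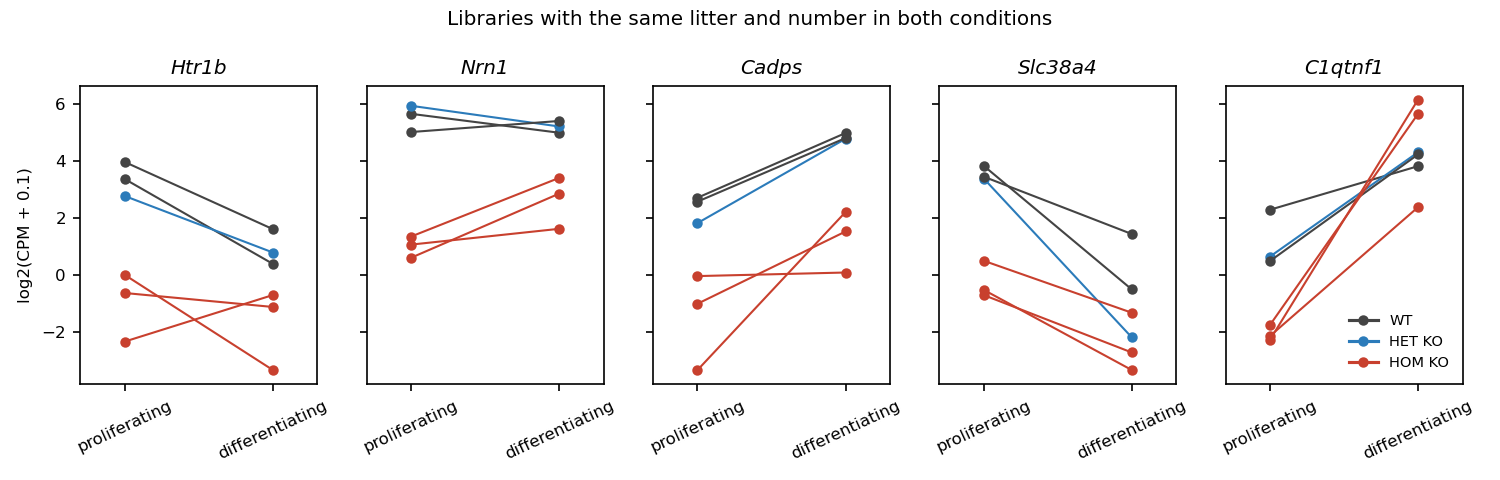
Levels of the 5 genes in the 6 embryo labels found in both conditions (2 WT, 1 HET KO and 3 HOM KO), as log2 of CPM plus 0.1, with a line from proliferation to differentiation for each. *Cadps* and *C1qtnf1* go up and *Slc38a4* goes down in the WT embryos, and *C1qtnf1* goes up in the HOM KO embryos too.

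Litters served as a batch, and WT and HOM KO libraries met in 2 of them in each condition. In proliferation the HOM KO level within these litters was 5.87% and 4.27% of WT for *Htr1b*, 5.60% and 2.07% for *Nrn1*, 2.91% and 11.9% for *Cadps*, 3.45% and 10.8% for *Slc38a4*, and 9.26% and 3.6% for *C1qtnf1*. In differentiation it was 4.67% and 30.8% for *Htr1b*, 17.2% and 15.3% for *Nrn1*, and 9.17% and 2.32% for *Cadps*, all lower, and 198% and 600% for *C1qtnf1*. *Slc38a4* was at 14.2% and 719% of WT there, the latter against the WT library with 1 read. HET KO cells met WT cells of their litter in 2 litters of the proliferating set, with *Htr1b* at 73.0% and 46.8% of WT, *Nrn1* at 81.8% and 124%, *Cadps* at 61.4% and 69.8%, *Slc38a4* at 51.6% and 78.0%, and *C1qtnf1* at 74.1% and 137%. In 2 litters of the differentiating set *Htr1b* was at 55.3% and 51.3%, *Nrn1* at 87.4% and 71.7%, *Cadps* at 98.3% and 15.0%, *C1qtnf1* at 105% and 263%, and *Slc38a4* at 4.63% and, against the WT library with 1 read, 2550%. In HET KO cells *Nrn1*, *C1qtnf1* and, against the WT library with 1 read, *Slc38a4* were thus not below WT in every litter. In HOM KO cells *Nrn1* was below WT in each of these litters.

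The genes that overlap the members were examined, since the sources used here do not state whether reads were counted by strand. *D430036J16Rik*, a long noncoding RNA gene on the opposite strand of chromosome 9, overlaps *Htr1b* by 2299 bases. It had 3.53 ± 1.09 CPM in proliferating WT, 1.27 ± 0.302 CPM in HET KO and 0.0322 CPM in HOM KO libraries (SD, n = 4), with no overlap between the 3 groups, and at most 0.109 CPM in any differentiating library. It was not among the protein-coding genes tested. Both *Htr1b* and this RNA were thus lower with fewer *Kat6a* alleles, and reads of the pair cannot be told apart without strand. *Fars2*, a mitochondrial tRNA synthetase gene that overlaps *Nrn1* by 920 bases, stayed at 12.7 to 14.0 CPM in WT and 11.7 to 13.5 CPM in HOM KO proliferating libraries, and *Gm11747*, within reach of *C1qtnf1* over 7580 bases, was at 0 in every proliferating library.

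The chromosomal neighbours that could be tested moved by less than the members in proliferation. The members were chosen by large falls in this contrast, so that difference in size follows from the choice and is a description only. Of the 20 nearest protein-coding genes, 2 on each side of each member, 12 were tested in proliferating HOM KO against WT cells, with 3 called lower and 2 higher, beside 13.8% and 16.2% of all genes. All 5 calls were lost with litter as a fixed term, with FDR between 0.0639 and 0.178. Next to *Slc38a4*, the paralogous transporter genes *Slc38a2* (log2 fold change −0.51, SE 0.15, FDR 0.023) and *Slc38a1* (−0.19, FDR 0.0383) fell by far less than *Slc38a4*. The largest fall was that of *Rbfox3*, which encodes the neuronal splicing factor NeuN and lies 37.8 kilobases from *C1qtnf1* (−1.78, SE 0.49, FDR 0.0156). *Myo6*, near *Htr1b*, and *Cant1*, near *C1qtnf1*, were higher by 0.47 and 0.24.

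In differentiating HOM KO cells 13 of the 20 neighbours were tested, with 5 called lower and 1 higher, beside 27.7% and 26.7% of all genes. The one called higher was *Lgals3bp*, 26.0 kilobases from *C1qtnf1*, which encodes a secreted galectin-binding protein (log2 fold change 2.00, SE 0.31, FDR 0.000195), while *Rbfox3* differed by 0.01 there. The *Lgals3bp* call was lost without HOM KO replicate 1 (1.13, FDR 0.198) or 3 (1.13, FDR 0.277) and without quality weights (1.34, FDR 0.0745), as were those of *Synpr* and *Myo6* without HOM KO replicate 1 or 3. *Synpr*, a synaptic vesicle protein gene near *Cadps*, fell by 1.34 (FDR 0.0129) and *Myo6* by 0.75 (FDR 0.00165). *Fezf2*, 23.9 kilobases from *Cadps*, had too few reads to be tested in either condition.

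**Figure D4:**
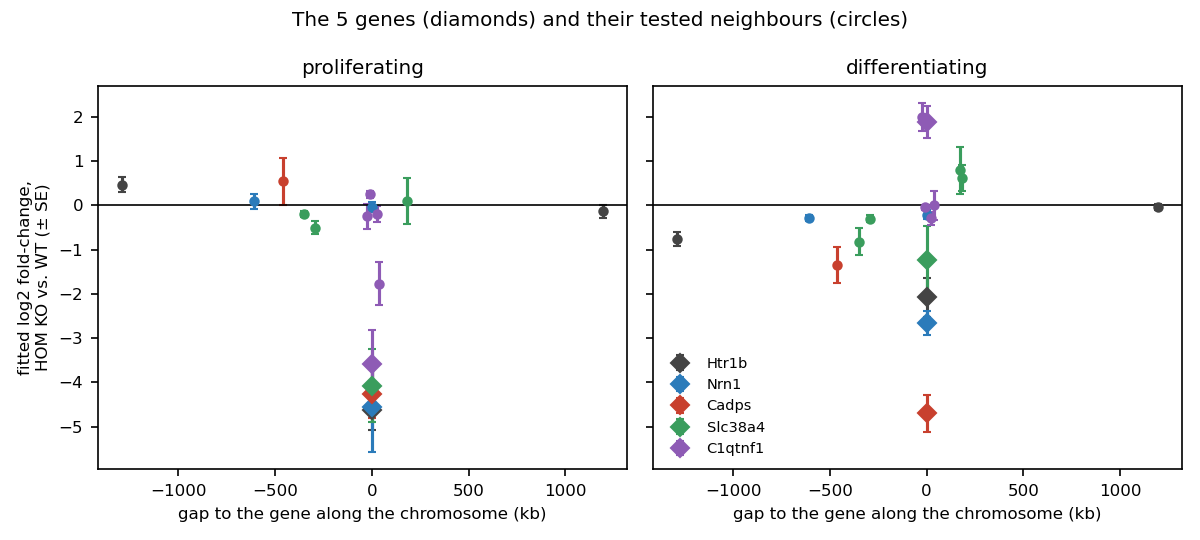
Fitted log2 fold changes of HOM KO against WT for the 5 genes and for those of their 2 nearest protein-coding genes on each side that were tested, in both conditions, in chromosomal order. Members lie at −3.58 or lower in proliferation, by the choice of the genes, and no tested neighbour lies below −1.78 there.

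Genes of the same families moved in both directions. Their counts stand beside 16.2% of all genes called higher and 13.8% called lower in proliferating HOM KO against WT cells, and 26.7% and 27.7% in differentiating cells. Of the serotonin receptor genes other than *Htr1b*, only *Htr3a* was expressed enough to test in proliferation (log2 fold change −0.62, FDR 0.202); in differentiation 2 of 4 were called higher and 0 lower, namely *Htr2a* (3.37) and *Htr5b* (1.3, FDR 0.0325). The *Htr2a* call was lost without HOM KO replicate 1 (1.92, FDR 0.286) or 3 (1.71, FDR 0.397), without quality weights (2.36, FDR 0.069) and with litter fixed (3.45, FDR 0.0503). *Htr5b* turned to −0.39 (FDR 0.846) without HOM KO replicate 1 and to −0.65 (FDR 0.753) without replicate 3, and was not called in edgeR (0.70, FDR 0.556) or DESeq2 (0.73, FDR 0.574). Of 11 genes for glycosylphosphatidylinositol-anchored neuronal surface proteins like *Nrn1*, 7 were higher and 1 was lower in proliferation, with a median of 0.87 against −0.0045 over all genes; *Opcml*, a cell adhesion gene, rose by 1.94, and the netrin-G gene *Ntng1* fell by 1.62. In differentiation 2 of 13 were higher (*Thy1* by 3.65) and 5 lower (*Ntng2* fell by 1.70), with a median of −0.62. Without HOM KO replicate 3, *Thy1* was at 2.45 (FDR 0.0954) and *Ntng2* at −1.37 (FDR 0.0941), and without replicate 1 *Ntng2* was at −1.36 (FDR 0.0591).

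Of 25 dense-core vesicle genes other than *Cadps*, 6 were higher and 2 lower in proliferation, with a median of −0.01. Its paralogue *Cadps2* fell by 1.28 in proliferation and by 1.11 in differentiation (FDR 0.0345), in the direction of *Cadps* but by less; the call in differentiation was lost in edgeR (−0.81, FDR 0.251), in DESeq2 (−0.80, FDR 0.241) and without HOM KO replicate 3 (−0.68, FDR 0.684), among others. In proliferation *Pcsk1n*, an inhibitor of prohormone cleavage, rose by 1.72. In differentiation 9 of 33 were higher and 10 lower, with *Vgf*, a secreted granule protein gene, higher by 4.17 and a median of −0.07. Without HOM KO replicate 3 *Vgf* was at 2.77 (FDR 0.0587).

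Of 14 neutral amino acid transporter genes other than *Slc38a4*, 2 were higher and 4 lower in proliferation with a median of −0.08, and *Slc7a5*, the large neutral amino acid transporter gene, fell by 0.76. In differentiation 3 of 15 were higher and 4 lower, with a median of 0.03. Of 17 imprinted genes other than *Slc38a4*, 3 were higher and 3 lower in proliferation, with a median of −0.02, and *Grb10*, an adaptor of insulin receptor signalling, fell by 1.46. In differentiation 6 of 21 were higher and 8 lower, with *Sfmbt2* higher by 3.13, *Usp29* lower (−2.56) and a median of −0.61.

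Of 7 C1q and tumour necrosis factor related genes other than *C1qtnf1*, 3 were higher and 2 lower in proliferation, with *C1qtnf6* higher by 1.36, *Emilin2* lower (−0.99) and a median of −0.10. In differentiation 4 of 10 were higher and 0 lower, with the matrix protein gene *Emilin1* higher by 1.93 and a median of 0.71. *Emilin1* was at 1.16 (FDR 0.101) without HOM KO replicate 1 and at 0.71 (FDR 0.245) without replicate 3. In limma no gene of these 6 lists was called in HET KO against WT in either condition. The lists were drawn up with results of these data known, and the medians are descriptions.

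Over the 12 proliferating libraries the 5 genes correlated closely with one another (Pearson r of log2 CPM between 0.785 and 0.936 for the 10 pairs), which follows from the HOM KO group in which all are near 0. In the 8 WT and HET KO proliferating libraries alone the coefficients ran from −0.13 to 0.811, and in the differentiating libraries from −0.531 to 0.834. As a description over all 24 libraries and 13590 genes, the genes most like *Htr1b* were *Ebf3* (r = 0.925), *Ggt7* (0.904) and *Cldn11* (0.881), those most like *Nrn1* were *Camta1* (0.877), *Rims2* (0.867) and *Gzf1* (0.849), and those most like *Cadps* were *Pak1* (0.934), *Otx1* (0.927) and *Rims2* (0.917). *Slc38a4* was most like *Hbs1l* (0.911), *Adnp2* (0.908) and *Prdx4* (0.897), and *C1qtnf1* was most like *Lsp1* (0.956), *Asl* (0.949) and *Nectin2* (0.948). The libraries share genotype and condition, so these values carry no test.

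Markers of other cell types that the cultures could hold were read beside the members. Of all genes, 16.2% were called higher and 13.8% lower in proliferating HOM KO against WT cells, and 26.7% and 27.7% in differentiation. In proliferation summed neuronal markers were at 1513 to 1681 CPM in WT and 1604 to 1751 CPM in HOM KO libraries. Summed astrocyte markers were at 843.2 to 1066 and 1432 to 2132 CPM, with 5 of 6 tested called higher. *Sparcl1*, at means of 779 and 1405 CPM, made up most of both astrocyte sums. *Gfap* was at 0.25 and 3.21 CPM, and *Aldh1l1* had a lower mean in HOM KO (16.15 and 4.55 CPM). Of 11 tested neuronal markers, 3 were called lower and 1 higher in proliferation, and 5 lower and 2 higher in differentiation (median −0.67). In differentiation summed neuronal markers were at 617.5 to 813.3 CPM in WT and 549.9 to 1014 CPM in HOM KO libraries. *Map2*, at means of 468 and 533 CPM, made up most of both sums, and *Gap43* was at 35.8 and 78.5 CPM. *Tubb3* was lower, at 72.3 and 45.2 CPM, as were *Dcx* (39.3 and 4.55) and *Elavl4* (17.6 and 1.83). The sum is therefore no measure of neuron content. By flow cytometry the paper found fewer βIII-tubulin-positive cells in differentiating HOM KO than WT cultures. Summed markers of ventral telencephalon cells, at 11.9 to 51.0 CPM in WT and 2.84 to 5.44 CPM in HOM KO libraries, were lower, with 7 of 8 tested called lower. Those of intermediate progenitors, at 140.5 to 323.2 and 58.5 to 188.2 CPM, overlapped, with 3 of 5 tested called lower and 1 higher. *Btg2*, at a mean of 99.1 CPM in WT and 108.8 CPM in HOM KO libraries, made up most of the HOM KO mean sum of 118.4 CPM. The part of these cell types in the values of *Htr1b*, *Nrn1* and *Cadps* was not tested. Summed microglia markers were at 1.27 to 1.41 CPM in proliferating WT and 6.38 to 8.38 CPM in HOM KO libraries, with the 1 tested called higher. *P2ry12* made up most of that sum (mean 7.20 CPM in HOM KO), and *C1qa* was at 0 in every library, as were *Neurog1* of the intermediate progenitor list and *Nkx2-1* of the ventral list.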

How the data were processed

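RNA was sequenced from 24 libraries of NSPCs of 3 genotypes in 2 conditions. Per the labels and the study's methods, reads were aligned to mm39 with Rsubread. The authors deposited raw read counts per gene from featureCounts with a RefSeq annotation whose date the study gives. The Rsubread version for the RNA reads and the strand setting were not given in the sources used here. The members, gene lists and tests were chosen with earlier results of these data known.

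Protein-coding genes were kept by RefSeq biotype (21030 of 26411 rows), *Xist* and Y-only genes were left out, low counts were filtered with filterByExpr and libraries were scaled by TMM (edgeR 4.0.16, R 4.3.3). Proliferating libraries were fitted with limma-voom (limma 3.58.1) and a random block for the litter (estimated correlation 0.287), and differentiating libraries with limma-trend (prior count 2) and sample quality weights. The comparison of WT conditions and the interaction used limma-voom on all 24 libraries with the litter block (estimated correlation 0.00365). Recurring embryo labels were not modelled. P-values were adjusted by Benjamini-Hochberg over all genes tested (12276, 13339 and 13590), with calls at FDR 0.05. CPM in the text are counts scaled to 1000000 of the protein-coding total times its TMM factor, without weights, so fitted changes of differentiating cells can differ from ratios of means. Means are ± SD. Confidence intervals of pooled counts and the floor of 3 counts cover counting error only. The fits were tested on simulated counts with known changes.

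Alternatives were edgeR's quasi-likelihood test, DESeq2 1.42.0, library totals, other filters, litter as a fixed or absent term, the replicate number as a block, other weights or prior counts, and leaving out each library. Replicates were checked for duplicates (lowest chi-square per degree of freedom 5.81 over 36 pairs). Of 12 same-numbered pairs in each condition, 4 in proliferation (correlations −0.428 to 0.545) and 1 in differentiation (−0.483 to 0.156) deviated together at above 0.1, some of them littermates, so replicate numbers were not taken as pairs. Named genes were the members, the 3 next largest falls, 2 neighbours on each side, the 3 most alike, and up to 4 genes per family list by smallest p in each direction. The closest paralogue by protein identity was not analysed here.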

Additional observations from a re-analysis of the deposited data

How the results depend on the processing

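Of the 5 genes, those called in proliferating HOM KO against WT cells numbered 5 under every alternative. The genes were chosen by this contrast in these libraries, so that count is no support. Those called in differentiating HET KO against WT cells numbered 0 under every alternative. Leaving out single libraries gave ranges of called members of 2 to 5 in differentiating HOM KO against WT cells, 2 to 5 and 0 to 4 in proliferating and differentiating HOM KO against HET KO cells, and 0 to 2 in the interaction. In differentiating HOM KO against WT cells 2 were called with litter fixed. DESeq2 called 1 in proliferating HET KO against WT cells, and 28 of all genes. In differentiating HOM KO against HET KO cells edgeR called 2 of the 5 and 1656 of all genes. Litter fixed called 1 and 386 there, and voom with quality weights 2 and 2478. In the interaction edgeR, DESeq2 and limma-trend each called 2 of the 5, and 2233, 2768 and 2224 of all genes. With the replicate number as a block the counts were 5 in both HOM KO against WT comparisons, 4 in proliferating HOM KO against HET KO cells, 3 for WT conditions and 0 in the interaction, and the numbers are only names.

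Signs turned as follows. *Slc38a4* in differentiating HOM KO against HET KO cells was −0.92 in edgeR, −0.91 in DESeq2, −0.0202 with library totals, −0.22 with no filter, −0.18 with litter fixed, −0.71 with the replicate block, −0.84 without quality weights, −0.0104 at a prior count of 0.5, −0.59 with voom, and −0.81 to 0.48 without single libraries. *C1qtnf1* ranged from −0.55 to 1.65 there, and from −0.14 to 2.07 against WT, without single libraries. *Cadps* in the interaction was −0.0733 with library totals, −0.17 in limma-trend and −0.62 to 0.53 without single libraries. In differentiating HET KO against WT cells *Htr1b* ranged from −0.78 to 0.0817 and *Cadps* from −0.71 to 0.00638. In differentiating HOM KO against WT cells *Slc38a1* was 0.18 in edgeR, 0.20 in DESeq2 and −1.005 to 0.33 without single libraries, *Slc38a2* −0.35 to 0.0649 and *Htr5b* −0.65 to 1.52. Of 1012 values of members under alternatives, 915 kept direction and side of the threshold, a tally that includes the contrast that chose the genes. Causes were not tested.

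All genes called in proliferating HOM KO against WT cells numbered 3686, against 1936 with litter fixed and 2317 without WT replicate 1, and in differentiating cells 7258, against 3244 in edgeR, 4076 in DESeq2, 1785 with litter fixed, 3096 without quality weights, 1212 without HOM KO replicate 1 and 939 without replicate 3. Depth limits *Slc38a4* in differentiating cells and *C1qtnf1* in proliferating HOM KO cells, where libraries held 1 or 2 reads.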
